A study of Mus musculus with 240 samples.

Results

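Cell-to-cell differences among oligodendrocyte precursor cells (OPCs) at 90 days were examined in 96 of the 240 libraries of the series. These were all small libraries at that time, chosen by their labels: 56 libraries of 10 cells captured together and 40 pool-and-split controls. All came from mice of genotype Trp53-/- Nf1-/- (their labels name no Cre driver), taken 90 dpi, that is 90 days from the beginning of tamoxifen treatment, with no wild-type libraries of this kind among them. Cells were cut from 8 µm cryosections of brain by laser capture microdissection, and their polyA RNA was amplified by PCR. The labels name 4 sets by sex and number (female-1, female-2, male-1 and male-2), each with 14 10-cell and 10 pool-and-split libraries. They do not say what the number stands for, so the p-values measure the spread between these libraries, part of which may be technical.

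OPCs are the dividing, migrating cells of the adult brain that carry the receptor PDGFRA and the proteoglycan NG2 and mature into the oligodendrocytes that wrap axons in myelin. NF1 restrains RAS and p53 restrains the cell cycle, and OPCs that lose both can give rise to glioma. In the 10-cell approach, small groups of cells are profiled many times over, and the controls are aliquots of a larger pool of captured cells. The aliquots carry the noise of handling, amplification and counting, so a gene whose cells differ from one another varies more among 10-cell libraries than among aliquots.

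Depth was 2806520 to 5050770 counts per 10-cell library (median 4041810) and 1906780 to 4364810 per pool-and-split library (median 3529750). A 10-cell library held a median of 10110 genes with a count above 0 against 8739 in the controls, and a median of 2.46% of its counts in spike-in RNA against 4.92%. Detection and spike-in share thus differed between the kinds. After regression on genes detected the test below called 40 genes with a larger and 53 with a smaller spread in place of 26 and 36. Only 20 of the 26 and 10 of the 36 were among them. The part of the spike-in share was not tested. Library numbers at 90 dpi ran from 1 to 40 for the controls and from 41 to 96 for the 10-cell libraries, whereas at 12 dpi the kinds were mixed along the numbers. The labels do not say whether the numbers follow amplification or sequencing, so the kind and any run that follows them cannot be told apart at 90 dpi. No 2 libraries were identical among 4560 pairs. Of the 34623 genes in the table, 9704 were detected in at least 50% of the 96 libraries and were tested.

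Spread was measured as the absolute deviation of log2(CPM + 1) (CPM, counts per 1000000 counts of a library) from the median of a library's own set and kind, and a spread difference is the mean deviation in 10-cell libraries minus that in controls. With limma's moderated test and sex as a covariate, 26 genes (0.268% of those tested) had a larger spread in 10-cell libraries at a Benjamini-Hochberg adjusted p under 0.05. A further 36 genes (0.371%) had a smaller one. At an unadjusted p under 0.05 the shares were 4.91% and 8.73%. The median difference over all genes was -0.06, and 56.9% of genes varied less among 10-cell libraries than among aliquots of the pool. The median log2 ratio of the standard deviations was below 0 in each set, at -0.11, -0.18, -0.04 and -0.04 in female-1, female-2, male-1 and male-2.

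**Figure D1:**
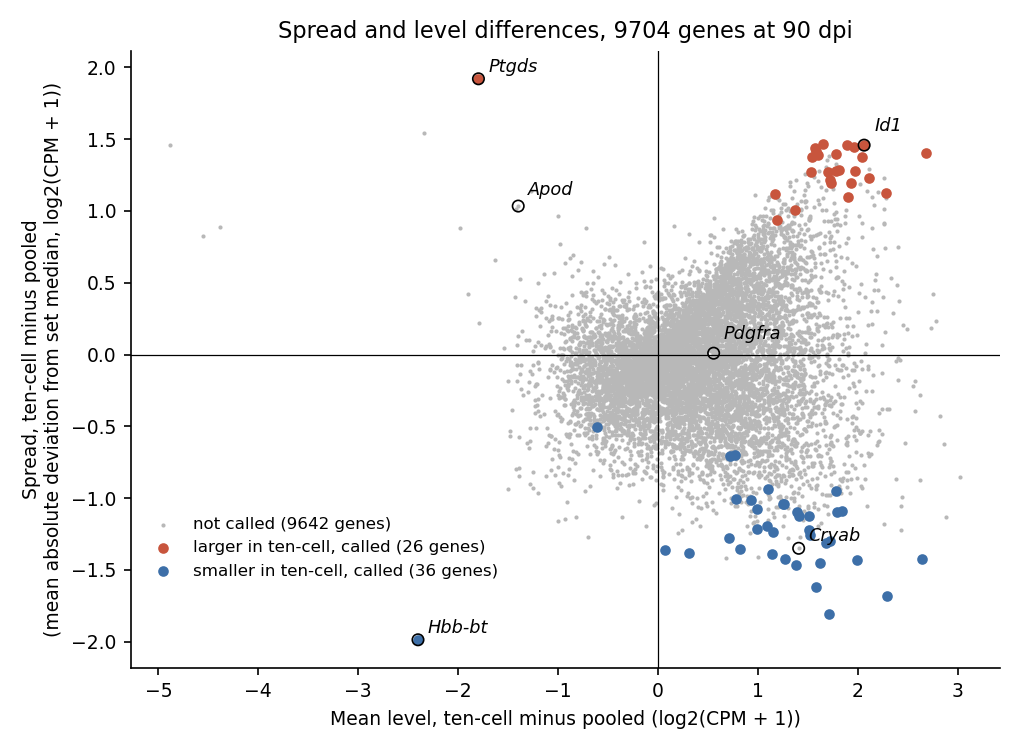
Each point is 1 of 9704 genes, placed by the difference in mean level (x, log2(CPM + 1)) and in spread (y, same scale) of 10-cell (ten-cell) minus pool-and-split libraries, with called genes in colour and 6 genes circled. Ptgds stands at a spread difference of 1.92 and a level difference of -1.80, away from the other 25 called genes with a larger spread, which lie to the right at level differences of 1.17 to 2.68.

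Ptgds was the only called gene with a larger spread whose level lay above the median of the genes tested. It encodes lipocalin-type prostaglandin D synthase, a secreted enzyme and carrier protein made in the brain mainly by mature oligodendrocytes, the leptomeninges and the choroid plexus. The gene (ENSMUSG00000015090) lies on chromosome 2 at 25466709 to 25470046 (GRCm38). Apod, which encodes apolipoprotein D, another secreted lipocalin of oligodendrocytes, is taken with it below because the pair had the largest spread differences of the oligodendrocyte genes. The windows around the start sites of both genes (RefSeq, GRCm38.p6, 250 bases before to 50 after the start, minus strand, printed 5′ to 3′) are shown to place these genes. Capitals mark ACAAAG or its reverse complement CTTTGT, the core bound by SOX proteins such as the oligodendrocyte factor SOX10.
Ptgds, chr2:25469700-25469999: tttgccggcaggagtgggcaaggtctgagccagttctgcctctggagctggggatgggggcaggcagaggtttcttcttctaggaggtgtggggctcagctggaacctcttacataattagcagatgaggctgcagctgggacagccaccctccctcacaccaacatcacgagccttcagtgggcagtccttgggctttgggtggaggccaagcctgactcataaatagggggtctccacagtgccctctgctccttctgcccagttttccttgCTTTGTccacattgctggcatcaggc
Apod, chr16:31314759-31315058: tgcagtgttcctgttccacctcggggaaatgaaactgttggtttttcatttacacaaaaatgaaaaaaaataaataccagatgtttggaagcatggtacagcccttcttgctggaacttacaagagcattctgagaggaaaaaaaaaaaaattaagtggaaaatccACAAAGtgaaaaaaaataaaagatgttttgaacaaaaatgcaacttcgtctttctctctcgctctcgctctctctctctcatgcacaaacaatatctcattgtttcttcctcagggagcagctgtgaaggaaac
Each window holds 1 match. At least 1 match is found in 18.7% of all 32851 windows in the table. Counted by gene, any window of 21.0% of 27025 genes has a match, as has any window of 7 of the 15 oligodendrocyte genes in the table. These matches are a description of the letters and no evidence of binding.

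In the female-1 set Ptgds ranged from 112 to 4944 CPM among controls (median 1817) and from 0.494 to 66440 CPM among 10-cell libraries (median 321). In female-2 the controls ran from 514 to 3439 CPM (median 1377) and the 10-cell libraries from 1.08 to 5662 (median 1214). In both sets the 10-cell libraries reached above the highest and below the lowest control. In male-1 the controls ran from 570 to 3110 CPM (median 1958) and the 10-cell libraries from 0 to 5404 (median 248). In male-2 the controls ran from 129 to 2148 CPM (median 977) and the 10-cell libraries from 1.11 to 6341 (median 1443). Of 56 10-cell libraries, 9 lay above and 19 below the controls of their own set, against medians of 5 and 0 over all genes tested. Every set thus had groups of cells rich in Ptgds beside groups with next to none. The standard deviation within sets was 3.77 in 10-cell libraries against 1.23 in controls on the log2(CPM + 1) scale. The spread difference was 1.92 (SE 0.43, limma adjusted p 0.0142), with a larger spread in 4 of 4 sets.

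The Ptgds call held when any 1 of the 96 libraries was left out (limma adjusted p 0.0120 to 0.0296). It was lost without the female-1 set (0.0649), without the male-1 set (0.174), and with the set as the unit (0.375). The call was lost, too, in female sets alone (0.252) and in male sets alone (0.172). It was also lost after the trend of deviation on level among controls was subtracted (0.131), although Ptgds then still had the largest difference of all genes.

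The 66440 CPM came from library 95 of female-1, in which Ptgds took up 6.64% of all counts; the next highest 10-cell library was at 6341 CPM. Library 95 did not have the other oligodendrocyte genes in proportion: Mbp was at 105 CPM, and 4 of the 18 tested genes of the list fell below the female-1 controls while only Ptgds exceeded them. It did have markers of leptomeningeal fibroblasts, which are known to make Ptgds, in a list of 15 genes drawn up after these values were seen. Of the 15, 13 were above 0 in library 95 and 5 were at their highest of all 96 libraries there. Their summed level was 3396 CPM, against 8.23 to 1480 CPM (median 189) in the other 55 10-cell libraries and 2.61 to 574 CPM (median 148) in controls. Slc22a6, an organic anion transporter, was at 705 CPM (other 10-cell libraries at most 97.6). Ogn, which encodes osteoglycin, was at 754 CPM (at most 39.1 elsewhere among 10-cell libraries), and Cdh1, which encodes E-cadherin, was at 52.6 CPM (at most 0.286). These genes were among the 5 at their highest in library 95, and other members were not. Lum was at 0.705 CPM (at most 54.9 in other 10-cell libraries), Dcn at 106 (at most 155) and Col1a2 at 120 (at most 401). Slc47a1 and Col1a1 were at 0 in library 95, and the part of such cells in its Ptgds level was not tested. Without library 95 the Ptgds spread difference was 1.81 (SE 0.42, limma adjusted p 0.0194).

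**Figure D2:**
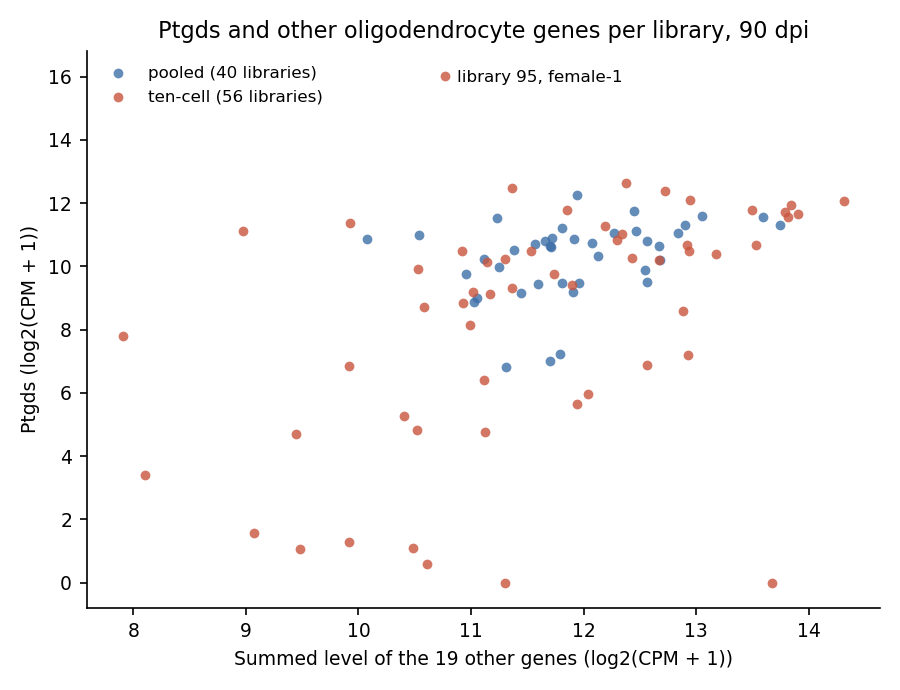
Each point is 1 library at 90 dpi, with the summed level of the other 19 genes of the oligodendrocyte list on the x axis and Ptgds on the y axis, both as log2(CPM + 1). Controls (pooled) range less widely, from 112 to 4944 CPM for Ptgds. The 10-cell libraries reach down to 0 for Ptgds, and library 95 stands alone at the top.

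The other mature oligodendrocyte genes leaned the same way without passing the threshold. The list of 20 genes for oligodendrocytes and myelin had 18 tested members, of which 1 (Ptgds) was called with a larger spread and none with a smaller one. In 14 of 18 the spread difference was above 0 (4179 of 9704 over all genes), and its median was 0.43 against -0.06 for all genes. That median depended on the settings: it was 0.71 with a pseudocount of 0.1, 0.19 with 5, 0.16 over the 11 members detected in 0.9 of libraries, 0.22 with the set as the unit, 0.27 in female sets alone and 0.28 minus the trend on level. It was 0.04 over the 5 members whose level differed by under 0.5, and in male sets alone 10 of 18 differences were above 0. In 8 of 18 the spread was larger in all 4 sets, a pattern met by 5.19% of all genes tested. In that direction 5 members had an unadjusted p under 0.05, as had 4.91% of all genes. The list had been examined in earlier work on these data, so its lean is a description.

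Apod had controls of 103 to 2014 CPM (median 209) in female-1 and 10-cell libraries of 0 to 1003 (median 27.3). In female-2 controls held 38.7 to 812 CPM (median 275) and 10-cell libraries 15.3 to 1724 (median 278). In male-1 controls held 25.0 to 333 CPM (median 78.2) and 10-cell libraries 0 to 443 (median 75.7), and in male-2 21.6 to 1983 (median 195) and 3.61 to 677 (median 216). The excursions were mainly downward: 20 of 56 10-cell libraries lay below their controls and 2 above. The spread difference was 1.03 (SE 0.33, limma adjusted p 0.113), larger in 4 of 4 sets.

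Of the remaining members, Aspa (aspartoacylase, which frees acetate for myelin lipids) had a difference of 0.86 and an adjusted p of 0.278. Cnp (a myelin-associated phosphodiesterase) had 0.77 and 0.458, and Ermn (ermin, a cytoskeletal protein of late oligodendrocytes) had 0.71 and 0.363. Mag, Mog and Cldn11, which encode proteins of the inner and outer myelin layers and of its tight junctions, had 0.50, 0.36 and 0.53, each larger in all 4 sets and none called. Mbp, the myelin basic protein gene, had 0.16 (SE 0.30, adjusted p 0.884). It left the control range mainly upward, with 18 of 56 10-cell libraries above every control of their set and 1 below (medians over all genes 5 and 0). Going the other way, Cryab (a small heat shock protein) had -1.35 (adjusted p 0.0653) and Myrf (the transcription factor that drives myelin genes) had -1.02 (adjusted p 0.261), both smaller in 4 of 4 sets. Deviations from the mean of a set in place of its median brought 4 members past the threshold, among them Ptgds, Apod (1.09, limma adjusted p 0.0113) and Ermn (0.80, 0.0202), with Cryab and Myrf past it in the other direction. That choice called 243 larger and 424 smaller genes in all.

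**Figure D3:**
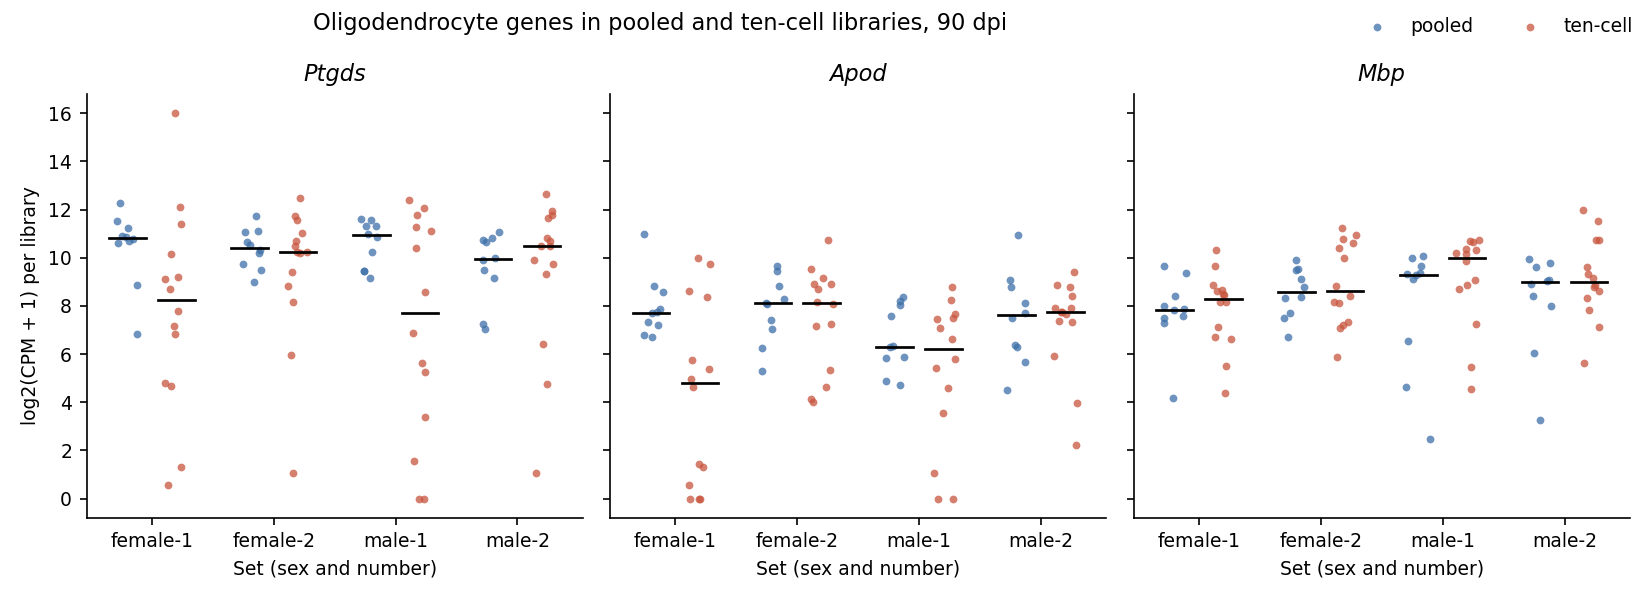
Levels of Ptgds, Apod and Mbp as log2(CPM + 1) in every library at 90 dpi, by set and kind, with bars at the median. For Ptgds and Apod the 10-cell (ten-cell) points reach far below the controls (pooled), with 19 and 20 of 56 under the lowest control of their set against 1 of 56 for Mbp, which has 18 of 56 above the highest.

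The excursions of these genes were shared within libraries. The summed level of the 20 genes ran from 283 to 68183 CPM (median 4274) over 10-cell libraries and from 2554 to 16232 CPM (median 5147) over controls. The standard deviation of the log2 sum within sets was 1.58 against 0.70, a ratio of 2.24, the highest of the 33 lists examined. The ratio was 2.05 without library 95 and 1.84 without Ptgds. In libraries 59 (male-1) and 93 (male-2), 12 of the 18 tested genes exceeded every control of the set, and in 9 of 56 libraries at least 6 did. At least 3 exceeded every control in 20 of 56 libraries, which is not particular to this list. The same count was 25 for the 19 tested genes of the chromatin and methylation list and 9 for the 18 of OPC identity. The most in 1 library was 12 here, against 5 and 4 in those lists. At the other end, 22 of 56 libraries had at least 3 oligodendrocyte members below every control, 10 of them in female-1. The median correlation between pairs of these genes, on log2(CPM + 1) centred within sets, was 0.40 over 56 10-cell and 0.24 over 40 control libraries, against 0.07 and 0.05 for all genes. Points of such a correlation share the library, its depth and its total of counts.

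Within the list, Ptgds correlated at a coefficient above 0 with 17 of 17 other tested members among 10-cell libraries (median 0.30) and with 14 of 17 among controls (median 0.23). Its closest partners were Trf, which encodes the iron carrier transferrin, at 0.55 against 0.38 in controls, and Apod at 0.54 against 0.06.

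**Figure D4:**
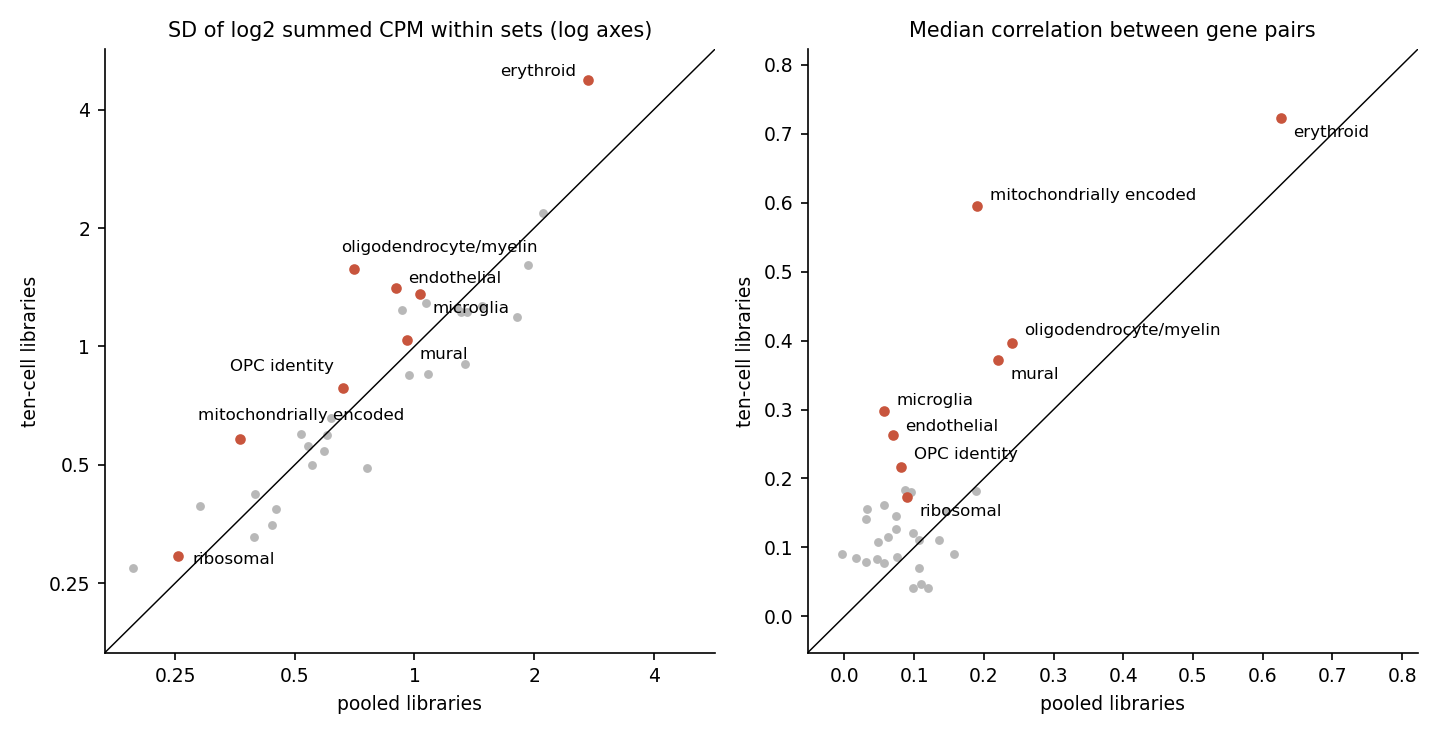
Each point is 1 of 33 gene lists, with controls (pooled) on the x axis and 10-cell (ten-cell) libraries on the y axis; left, the standard deviation of log2 summed CPM within sets on log axes, and right, the median correlation between gene pairs. The oligodendrocyte list lies furthest above the line on the left (1.58 against 0.70), and mitochondrially encoded genes furthest on the right (0.59 against 0.19).

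No gene of OPC identity passed the test against pool noise. None of the 18 tested members of 19 was called, 6 had a difference above 0, and their median was -0.03. Pdgfra, the growth factor receptor that defines OPCs, was at 0 in 6 of 40 controls and 7 of 56 10-cell libraries, and its median was 2.43 and 7.32 CPM. Its spread difference was 0.01 (SE 0.32, limma adjusted p 0.995). Cspg4, the NG2 gene, had -0.51 (SE 0.28, adjusted p 0.433), Olig2 -0.12 and Sox10 -0.12, the last 2 being the transcription factors of the lineage. Olig1, their close relative, was the only member with a larger spread in all 4 sets (0.28, SE 0.21, adjusted p 0.604). The summed level of the OPC list had a ratio of standard deviations of 1.19. At levels of a few CPM, as for Pdgfra, part of the spread can be presence or absence, which limits what can be seen for such genes. Cspg4 was detected in 100% of both kinds, at a mean log2(CPM + 1) of 5.94 in 10-cell libraries and 6.35 in controls. In libraries of several cells, fewer cells of a type and less RNA per cell cannot be told apart.

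Neither targeted gene passed the test. Nf1 had 0.27 (SE 0.38, limma adjusted p 0.824), with a count of 0 in 16 of 40 controls and detection in 58.9% of 10-cell libraries. Trp53 had 0.32 (SE 0.25, adjusted p 0.616). Whole-gene counts in cells deleted for both do not separate deleted from remaining exons, so they do not check the deletion. Cdkn1a, the p53 target that halts the cell cycle, had 0.09 (SE 0.20, adjusted p 0.907). Of 20 mitosis genes only 4 were detected widely enough to be tested, and Mki67 was not among them; none was called. The RAS pathway list had 19 tested members and the MAPK output list 7, with 0 called in both and medians of 0.08 and 0.11.

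Summed endothelial and microglial markers ranged more widely among 10-cell libraries, though their single genes leaned little. The summed level of 13 endothelial markers ran from 20.8 to 5610 CPM in 10-cell libraries and from 188 to 1979 CPM in controls, with a standard deviation of log2 sums of 1.41 against 0.90. Their pair correlation was 0.26 against 0.07, and no endothelial gene was called (Cldn5, a tight junction protein, 0.30, adjusted p 0.770). The median spread difference of the 11 tested endothelial members was 0.01. For 15 microglial markers the standard deviations were 1.36 and 1.03 and the pair correlations 0.30 and 0.06. Their median spread difference was 0.14, and none was called. P2ry12, the microglial purine receptor, came closest (1.11, SE 0.30, adjusted p 0.0553). Its mean log2(CPM + 1) was low, at 0.70 in controls and 2.16 in 10-cell libraries, with detection in 45% and 75%. Cx3cr1, the fractalkine receptor, had 0.70 (adjusted p 0.281). The 9 tested mural markers leaned towards smaller spread (median -0.55), among them Rgs5, a pericyte marker, at -0.55 (adjusted p 0.559). The summed level of the mural list had standard deviations of 1.04 and 0.96, and its pair correlation was 0.37 against 0.22. Astrocyte and neuron lists had 0 called of 16 each, with Gfap at -0.11, Aqp4 at -0.40 and Snap25 at -0.28. Whether these cell types have a part in the spread of other genes was not tested.

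Haemoglobin transcripts showed the widest swing of any list. Their summed level was between 0 and 36317 CPM in 10-cell libraries (median 135) and between 2.11 and 18543 CPM in controls (median 4312), and it was under 10 CPM in 19 of 56 and 2 of 40. The standard deviation of the log2 sum was 4.75 against 2.73. Hbb-bs, a beta globin, ran from 0 to 13567 CPM over 10-cell libraries and from 0 to 7781 over controls, with a spread difference of 1.46 (SE 0.66, limma adjusted p 0.291). Hbb-bt, its neighbour and close copy, between which reads can be split, was called in the opposite direction (-1.99, SE 0.51, adjusted p 0.0409). It was at 0 in 37 of 56 10-cell and 11 of 40 control libraries, so that most 10-cell libraries sat at their set's median of 0.

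The other 25 called genes with a larger spread were all low. Their mean level in controls was between 0.28 and 1.22 on the log2(CPM + 1) scale, and every one had a higher mean level in 10-cell libraries. They were detected in 22.5 to 60.0% of controls and 58.9 to 85.7% of 10-cell libraries. The filter counted both kinds together, so genes detected in under 50% of controls passed it only through the 10-cell libraries. Where the controls of a set had a median of 0, their deviation followed from their level alone. For such genes a larger spread cannot be told apart from the higher level and detection. Among the 25, 1 gene belonged to a list, Id1, which encodes an inhibitor of helix-loop-helix factors that holds precursors undifferentiated. Id1 ran from 0 to 77.2 CPM over controls, 27 of 40 being at 0, and from 0 to 303 CPM over 10-cell libraries, 15 of 56 being at 0. In 16 of 56 it exceeded all controls of the set (median over all genes 5), and the spread difference was 1.46 (SE 0.33, limma adjusted p 0.0133). Others, chosen after their values were seen, were Tmem165, a Golgi membrane protein (1.46, adjusted p 0.0034), Kdelr2, a receptor that returns proteins to the endoplasmic reticulum (1.44, 0.0133), and Ino80d, a subunit of the INO80 chromatin remodeller (1.27, 0.0027). None of the 25 was still called once the controls' trend of deviation on level was subtracted. Among the 4675 genes whose level differed by under 0.5 between the kinds, 0 were called in either direction.

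Genes of functions shared by all cells mostly had spread differences below 0, few of them called. Over all genes 4179 of 9704 differences were above 0. Among the 3235 genes with the highest mean levels the median difference was -0.29, and 33 of the smaller calls lay there. List medians were -0.15 for ribosomal proteins, -0.32 for oxidative phosphorylation, -0.44 for the proteasome, -0.34 for translation and -0.24 for splicing factors. The part of level in these list values was not tested. Of 36 called genes with a smaller spread, 34 lay above the median level and 34 had a higher level in 10-cell libraries (median level difference 1.26). Ribosomal proteins had a difference above 0 in only 9 of 79, with 1 called (Rpl10, -1.43, SE 0.31, limma adjusted p 0.0133). Oxidative phosphorylation had 7 of 75 above 0 and 2 called, Uqcrb of complex III (-0.94, adjusted p 0.0481) and Ndufs8 of complex I (-1.04, adjusted p 0.0478). Proteasome subunits had 3 of 33 above 0, translation factors 3 of 23 and splicing factors 3 of 19, with 0 called in each. The summed levels did not all go the same way: the ratio of standard deviations, 10-cell to control, was 1.40 for oxidative phosphorylation, 1.35 for translation factors and 1.15 for ribosomal proteins, against 0.80 for the proteasome and 0.92 for splicing factors. In the heat shock list 1 of 13 was called, Hspe1, the mitochondrial chaperonin partner (-1.10, adjusted p 0.0460), and in the lysosome list 1 of 19, Ctsl, a cathepsin (-1.42, adjusted p 0.0133). The 4 highest by size under the naming rule were Stx12, a syntaxin of endosomes (-1.81, adjusted p 0.0101), Gde1, a glycerophosphodiesterase (-1.68, 0.0034), Tomm5 of the outer mitochondrial membrane translocase (-1.62, 0.0110), and Emc4 of the membrane protein insertion complex (-1.47, 0.0286).

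Ctsl is an example of this difference, though not every called gene had its form. In female-2 it was at 0 in 4 of 10 controls, with a median of 1.40 and a maximum of 152 CPM, and ran from 12.0 to 525 CPM in 10-cell libraries. It was at 0 in 8 of 40 controls over all sets and in 0 of 56 10-cell libraries. For Ctsl the controls were thus split between libraries with and without the transcript, and the 10-cell libraries were not. Ap2m1 (-1.08, limma adjusted p 0.0019), Fabp5 and Rsrp1 were also called smaller but were detected in 100% of both kinds.

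The spike-in RNAs do not come from the cells and were looked at as a measure of handling. Their values are relative to a library's own spike-in counts, so they can also vary with how few of these it holds. The spike-in share ran from 0.0062 to 20.0% in controls and from 0.038 to 8.59% in 10-cell libraries. Over 21 tested spike-ins the median log2 ratio of standard deviations was -0.53, with a smaller spread in 10-cell libraries for 14. By set it was 0.24, -0.57, 0.18 and 0.01 in female-1, female-2, male-1 and male-2, and the female-2 controls held a median of only 0.250% of counts in spike-ins.

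Chromatin and DNA methylation genes mostly had spread differences above 0 without a call. The difference was above 0 in 17 of 19 (4179 of 9704 over all genes), with a median of 0.21 and 0 called. In 4 the limma unadjusted p was under 0.05 in that direction, as in 4.91% of all genes. They were Hdac2 (0.93, adjusted p 0.271) and Hdac3 (0.79, 0.281), which encode histone deacetylases, Tet2 (0.78, 0.226), a methylcytosine dioxygenase, and Smarca4 (0.59, 0.334), the ATPase of BAF remodellers. The median level over the list was 2.30 in 10-cell libraries and 1.99 in controls, against 3.13 and 2.61 over all genes tested. Among the 3235 genes with the lowest mean levels the median difference was 0.09. The part of level in the values of this list was not tested.

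Transcripts of the mitochondrial genome correlated with one another within libraries. None of 12 was called and their median difference was -0.03. Their summed level nevertheless ran from 13513 to 170057 CPM (median 86318) over 10-cell libraries and from 25105 to 98340 (median 48024) over controls. At least 3 of them were above every control in 35 of 56 10-cell libraries. The median member was above in 21 libraries, against 5 over all genes. The standard deviation of the log2 sum was 0.58 against 0.36, and the pair correlation was 0.59 against 0.19. Of the 33 lists, 17 had a larger spread of their sum in 10-cell libraries and 26 a higher pair correlation.

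**Figure D5:**
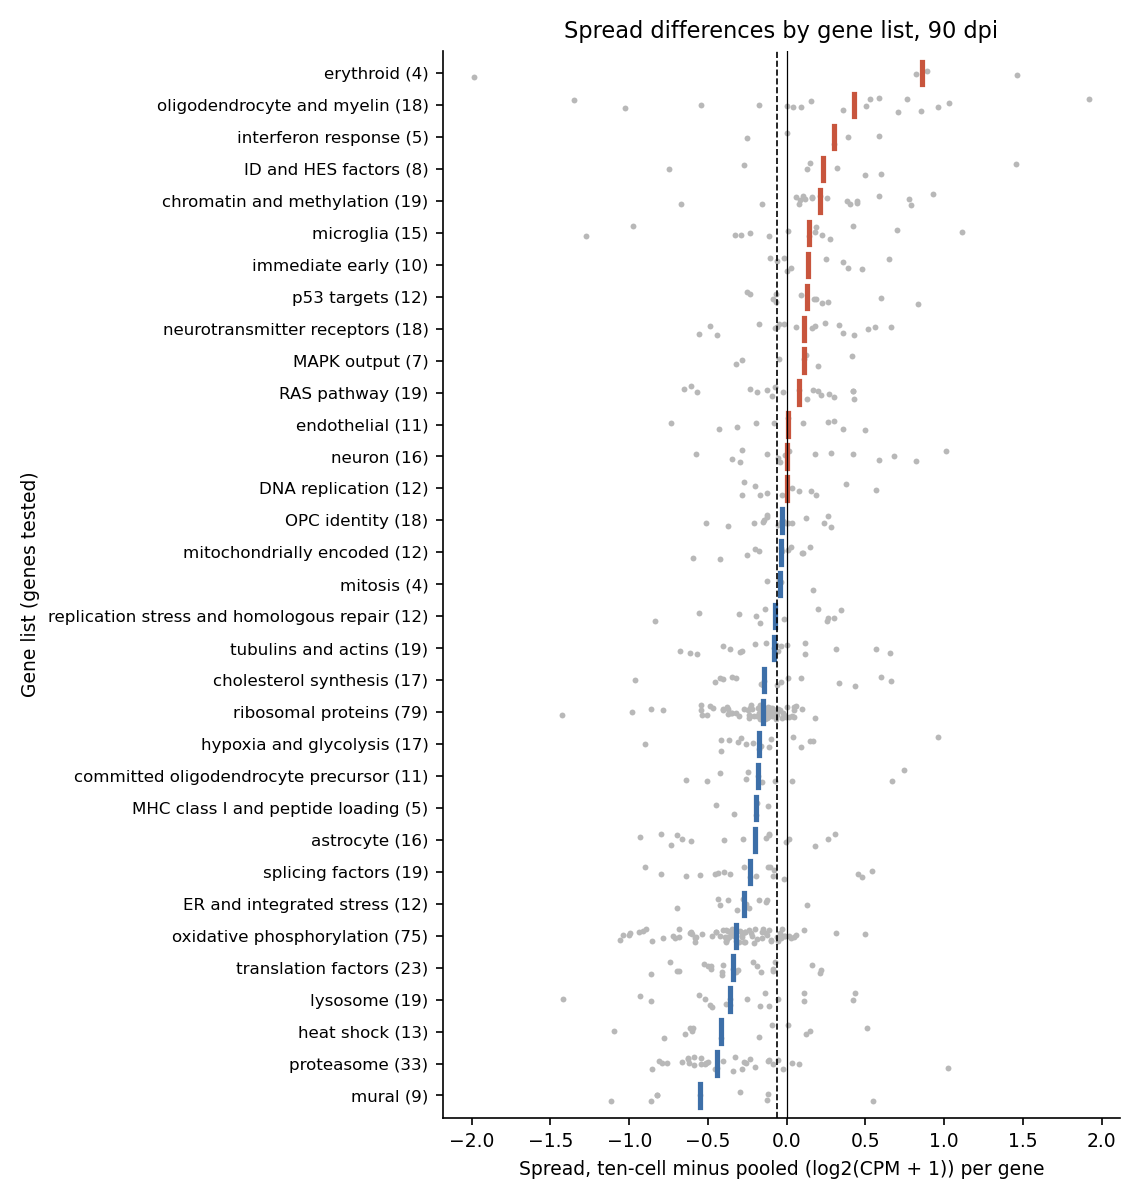
Spread difference of each tested gene (grey points, 10-cell minus controls, log2(CPM + 1)) by list, with the median as a coloured bar, a solid line at 0 and a dashed line at the median of all genes (-0.06). Haemoglobins and the oligodendrocyte list (0.43) lie furthest right among the medians, and the proteasome (-0.44) and mural markers (-0.55) furthest left.

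Mean levels were compared on counts summed over the libraries of each set and kind, with edgeR's quasi-likelihood test. Of 14236 genes 0 were called in either direction (0% and 0%), 1170 had an unadjusted p under 0.05, and DESeq2 called 305 higher and 133 lower in 10-cell libraries. The median gene was 0.37 higher in 10-cell libraries on the log2(CPM + 1) scale. A difference in level with 4 sums per kind was thus not called for Ptgds (edgeR adjusted p 0.772), whose mean log2(CPM + 1) was 8.46 in 10-cell and 10.26 in control libraries. On the summed counts, which hold the high value of library 95, its log2 fold change was 0.48.

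The same 9704 genes were followed in the 96 libraries of 12 dpi, which are other cells from mice of the same genotype. There 2 genes (0.0206%) had a larger spread in 10-cell libraries, among them Ptgds (2.24, limma adjusted p 0.0013), and 0 had a smaller one. At an unadjusted p under 0.05 there were 691 larger and 147 smaller at 12 dpi, against 476 and 847 at 90 dpi. The change of the spread difference from 12 to 90 dpi was -0.32 for Ptgds (SE 0.60, limma adjusted p 0.860), which did not pass the test. The median over all genes went from 0.12 at 12 dpi to -0.06 at 90 dpi.

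By the interaction of kind and time, 4 genes (0.0412%) gained spread and 41 (0.423%) lost it at 90 dpi relative to 12 dpi. Among the 4, Mtmr14, a phosphoinositide phosphatase, gained 2.10 (SE 0.52, limma adjusted p 0.0312), P2ry12 1.90 (SE 0.49, 0.0382) and Cpox (a haem synthesis enzyme) 1.23 (SE 0.30, 0.0312). The genes had been chosen by detection at 90 dpi alone, so a gain from 12 dpi is not independent of that choice. At 90 dpi Mtmr14 was detected in 35% of controls and P2ry12 in 45%, against 60.7% and 75% in the other kind of library. These 2 genes thus passed the filter only through that other kind. Cpox was detected in 87.5% and 91.1%. The part of the filter in these gains was not tested. The spread difference fell most for Hbb-bt (-3.54, SE 0.78, adjusted p 0.0112), Gde1 (-2.73, 0.0071), Tomm5 (-2.56, 0.0071) and Ctsl (-2.50, 0.0029). Of the oligodendrocyte list 1 of 18 was called over time, Cryab (-2.42, SE 0.56, adjusted p 0.0200), and the list's median difference was 0.35 at 12 dpi, with 9 of 18 above 0. With the set as the unit 0 genes were called in either direction. Without any 1 of female-2, male-1 or male-2, 0 genes were called with a larger spread difference at 90 dpi.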

How the data were processed

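The deposited values are expected counts per gene, made by the authors with RSEM and Bowtie2 on GRCm38, per the submitters' processing notes, which give no versions; 37.2% of nonzero values are not whole numbers. CPM were computed from library totals without spike-ins and transformed as log2(CPM + 1). Members, gene lists and tests were chosen with earlier results of these data known. Absolute deviations from the median of a set and kind, scaled by the square root of n/(n - 1), were compared with limma 3.58.1 (R 4.3.3), sex as covariate, two-sided, Benjamini-Hochberg over 9704 genes. Sums per set and kind, rounded, were compared with edgeR 4.0.16 (TMM, filterByExpr with a minimum count of 10 and a minimum total of 15) and DESeq2 1.42.0. The spread test was tested on simulated data with known spread. Named genes were Nf1, Trp53, up to 20 called genes larger in 4 sets and above the median level, 4 in the other direction, up to 4 and 2 called genes per list, 14 defining markers and 4 per direction over time; others are named as list members or after their values were seen. A list of 36 alternatives changed the pseudocount (0.1 or 5), detection filter, centre, scaling, covariates or sets, and 3 were added after seeing the data. Results for some genes are not reported here.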

Additional observations from a re-analysis of the deposited data

Results flagged for a closer look

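Among the called genes, the log2 ratio of standard deviations was compared over the 4 sets, and in 2 cases 1 set stood apart from the other 3. The ratio of Usp12, a deubiquitinase, was 1.502 in female-2, and that of Zc2hc1a was 2.79 in male-2. Chance alone sets about 1 in 20 such groups apart, and 36 genes were looked at.

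For 15 named genes the spread difference at 90 dpi differed from that at 12 dpi by the interaction test in limma. It was larger at 90 dpi for Mtmr14 (2.10), P2ry12 (1.90) and Cpox (1.23). It was smaller for Hbb-bt (-3.54), Gde1 (-2.73), Tomm5 (-2.56), Ctsl (-2.50), Cryab (-2.42), Poldip2 (-2.33), Rpl10 (-2.30), Cct2 (-2.13), Imp3 (-1.98), Maged1 (-1.92), Pafah1b1 (-1.66) and Fabp5 (-1.46). The genes tested had been chosen by detection at 90 dpi alone, and the part of that choice in these differences was not tested.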

How the results depend on the processing

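The counts of genes with larger and smaller spread at 90 dpi, 26 and 36, moved with the processing. They were 13 and 69 with a pseudocount of 0.1, 30 and 22 with 5, 4 and 73 with detection in 0.9 of libraries, 50 and 39 with 0.1, 243 and 424 with deviations from the mean, 40 and 53 after regression on genes detected, 34 and 68 without the 3 libraries beyond 3 median absolute deviations in genes detected, 3 and 0 in female sets, 2 and 4 in male sets, and 0 and 0 with the set as the unit, where 4 sets cannot give a two-sided sign-flip p under 0.125. They were 14 and 7 minus the controls' trend on level and 0 and 0 among genes with a level difference under 0.5. Leaving out 1 set or 1 library gave 12 to 31 larger and 8 to 52 smaller genes; the lowest smaller count came without library 14 or 33 of the male-1 controls. A count moved by over 1.5 times without any 1 of 5, 10 and 4 controls of female-1, male-1 and male-2, or of 1, 3, 3 and 2 10-cell libraries of female-1, female-2, male-1 and male-2. Over time, 4 and 41 became 2 and 99 with a pseudocount of 0.1, 2 and 131 with detection in 0.9, 20 smaller with a pseudocount of 5, and 0 and 0 with the set as the unit; leaving out sets gave 0 to 5 and 5 to 27. DESeq2 called 305 higher and 133 lower levels where edgeR called 0.

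The median log2 ratio of standard deviations moved to -0.21, -0.28 and -0.13 in female-1, female-2 and male-2 with detection in 0.9 of libraries and to -0.26 in female-2 with TMM. Minus the controls' trend on level, 13 called genes named here changed direction: Ampd2 -0.13, AY074887 0.0592, Bmyc -0.17, Ccdc32 -0.0862, Eef1akmt2 -0.0333, Etfa -0.28, Fam96b -0.00797, Ino80d -0.0402, Kdelr2 -0.0628, Pald1 -0.0340, Trim62 -0.24, Wbp11 -0.22 and Zc2hc1a -0.14. The cause was not tested. With the set as a replicate block the counts were 26 and 42; same-set deviations of the kinds correlated at 0.098 to 0.22, each set best with its own, as a hint from the data.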
